A study of Mus musculus with 8 samples.

Results

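The genes described here are 44 mouse genes that fold proteins in the endoplasmic reticulum (ER), sense unfolded protein there or remove it. They were taken by symbol from the deposited expression table and kept where the value reached at least 1 RPKM in at least 2 of the 8 libraries. RPKM is the number of sequenced tags over a gene's exons, scaled to the length of those exons and to the tags of the whole library, so levels can be compared between genes. Of the 44 listed genes 43 were found by symbol and 42 passed the filter, out of 24940 genes in the table and 11040 that passed the same filter. Derl3, a derlin of the ER membrane, missed it at 0 to 0.283 RPKM. Selk was not found under that symbol. The table holds the gene as Selenok, a selenoprotein of the ER membrane, at 41.2 to 59.5 RPKM. It was not counted as a member and was not called in any of the 5 comparisons.

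The cells were bone marrow-derived macrophages, the precursors that can become osteoclasts, from C57BL/6 mice of 6 to 8 weeks. Every group received 30 ng/ml of M-CSF, which macrophage precursors need to grow. Cells labelled NCsh or TMBIM6sh were left without RANKL, the cytokine that drives osteoclast formation, or given RANKL at 100 ng/ml for 24 h. This gave 4 groups of 2 libraries each: NCsh without RANKL, NCsh with RANKL, TMBIM6sh without RANKL and TMBIM6sh with RANKL. The labels do not spell out NCsh, and they attach the same protocol text on TMBIM6 depletion and RANKL to every sample, so the groups follow the sample titles. The number and the sequences of the hairpins are not given in the labels. What comes from losing Tmbim6 and what else a hairpin does to the cells cannot be told apart. The labels do not say whether the libraries of a group came from separate mice or cultures, and the p-values measure only the spread between these libraries. Tmbim6 stood at 330 and 334 RPKM in NCsh without RANKL, 309 and 321 in NCsh with RANKL, 11.1 and 11.7 in TMBIM6sh without RANKL, and 10.0 and 10.5 in TMBIM6sh with RANKL. The TMBIM6sh means were 3.44% and 3.25% of the NCsh means without and with RANKL.

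The depth, worked out from the steps between low values, was 25475000 to 28595000 tags per library. Tags summed over the exons of all genes came to 83.5% to 86.4% of it. Where genes overlap, a tag can count for each of them. The duplicates of a group differed by more than counting noise, with chi-square values per degree of freedom of 3.48 to 12.2. All 7 macrophage markers examined were above 1 RPKM in every library, and their summed level was 9190 to 10776 RPKM in NCsh and 7495 to 8583 in TMBIM6sh. Most of this sum was Lyz2, at 5280 to 8071 RPKM, which was called in neither hairpin comparison (limma, adjusted p = 0.145 without and 0.0823 with RANKL). Adgre1, Cd68, Itgam and Cd14 were called in neither as well. Csf1r and Mertk were lower in TMBIM6sh with RANKL alone, at -0.28 and -0.46. The summed neutrophil list was 22.4 to 27.9 RPKM in NCsh and 11.4 to 15.5 in TMBIM6sh. Nearly all of it was S100a8, while Ly6g was at 0 in all 8 libraries. The T cell list summed to at most 0.384 RPKM, the dendritic list to at most 1.13 and the stromal list to 1.92 to 3.14. The part of these marker differences in the results below was not tested. In bulk RNA, fewer cells of a type and less RNA per cell cannot be told apart.

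Proteins that enter the ER pass through the SEC61 translocon, are bound by chaperones such as BiP, and acquire disulfide bonds from isomerases that oxidases of the ERO1 family recharge. Glycoproteins go through the calnexin and calreticulin cycle, and those that fail to fold are pulled back to the cytosol and degraded, a route called ER-associated degradation (ERAD). When unfolded protein builds up, the sensors IRE1, ATF6 and PERK start the unfolded protein response. IRE1 splices the Xbp1 mRNA, and ATF6 travels to the Golgi, where the site-1 and site-2 proteases release its active fragment. Both factors bind promoters of folding genes. TMBIM6, also called BAX inhibitor-1, is a membrane protein of the ER that is known to bind IRE1.

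The best known promoter element of this response is the ER stress response element (ERSE), spelled CCAAT, then 9 bases of any kind, then CCACG. It was searched on both strands in promoter windows from RefSeq on GRCm38.p6, the build of the deposited table, each running from 250 bases before to 50 bases after a gene's start. Of the 42 members 37 had a window. Of these, 9 held an ERSE (24.3%), against 13 of the 8733 tested genes with a window (0.149%) and 39 of all 32851 windows (0.119%). The tested genes, here and for the elements below, include the members, and 9 of the 13 are these members. The 6 of these members with the largest difference between hairpins without RANKL are shown. They set members called between hairpins beside members that were not called, which is not the same as no difference. Each stretch is written 5′ to 3′ along the gene's strand, with the ERSE in capitals, on whichever strand it reads.

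Pdia6 (chr12:17266471-17266529, plus strand): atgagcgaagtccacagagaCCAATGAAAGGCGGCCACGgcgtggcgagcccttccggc
Hspa5 (chr2:34772005-34772063, plus strand): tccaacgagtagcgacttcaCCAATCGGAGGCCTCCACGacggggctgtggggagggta
Calr (chr8:84847055-84847113, minus strand): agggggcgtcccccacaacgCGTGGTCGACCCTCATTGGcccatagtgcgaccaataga
Hsp90b1 (chr10:86705513-86705676, minus strand): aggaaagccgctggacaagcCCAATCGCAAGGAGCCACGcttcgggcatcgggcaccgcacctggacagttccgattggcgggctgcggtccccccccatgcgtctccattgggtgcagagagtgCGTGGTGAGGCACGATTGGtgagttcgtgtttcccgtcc
Canx (chr11:50325780-50325838, minus strand): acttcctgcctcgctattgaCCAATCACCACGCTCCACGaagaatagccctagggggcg
Dnajc3 (chr14:118937807-118937865, plus strand): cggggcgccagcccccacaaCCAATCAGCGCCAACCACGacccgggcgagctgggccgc

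The ERSE began 98 bases before the start of Pdia6, 65 before Hspa5, 162 before Calr, 145 before Canx and 105 before Dnajc3. Hsp90b1 held a pair of them in opposite directions, at 212 and 107 bases before its start. The other members with an ERSE were Creld2, Ero1lb and Syvn1. The related element ERSE-II (ATTGG, 1 base of any kind, CCACG) was found in the windows of Herpud1 and Dnajb11, 2 of 37 members (5.41%) against 0.0916% of tested genes with a window. The XBP1 site TGACGTGG was in those of Txndc5 and Vcp, 2 of 37 (5.41%) against 1.03%. The core CCACG, which lies inside both elements and inside the XBP1 site read on the other strand, was in 29 of 37 (78.4%), against 52.9% of tested genes with a window.

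Between hairpins a part of the members differed, and most of those were lower in TMBIM6sh. In TMBIM6sh libraries without RANKL, 14 of 42 members were lower and 3 higher at an adjusted p under 0.05 (limma on log2(RPKM + 1), Benjamini-Hochberg over all 11040 genes). The same test called 13.8% of all tested genes lower and 10.4% higher. With RANKL, 15 members were lower and 3 higher, against 19.7% and 8.93% of all tested genes. Pdia5, Eif2ak3 and Ero1lb had mean levels at percentiles 5.59, 33.7 and 44.9 of all tested genes. Every other member lay above the median level, and changes of low genes are understated on this scale. The figures over all tested genes, here and below, were not matched for level, and what level adds to the gap was not tested. The median member difference, TMBIM6sh minus NCsh, was -0.14 without and -0.16 with RANKL on the log2 scale, while the median over all tested genes was -0.02 and -0.07. With median-ratio scaling the member medians were -0.12 and -0.08, and those of all tested genes -0.002 and 0. The differences ran from -1.46 to 0.55 without and from -1.43 to 0.46 with RANKL. Dividing by median-ratio size factors gave 13 lower and 3 higher members in each, with 1440 lower and 1365 higher genes in all without RANKL and 1621 lower and 1608 higher with it, against 1526 and 1147, and 2171 and 986, with no such scaling.

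The calls of the 2 hairpin comparisons are not independent, since all groups share the estimate of the spread of a gene. The 2 comparisons share no library. In both of them 13 members were lower: Pdia6, Hspa5, Calr, Atf6, Ero1l, Xbp1, Herpud1, Derl1, Mbtps2, Pdia4, Sdf2l1, Hsp90b1 and Ern1. Ssr1, Txndc5 and Atf6b were higher in both. P4hb was called only without RANKL, and Edem1 and Edem3 only with it, while 23 members were called in neither. The test of the difference itself, given further on as the interaction, called none of them. The 16 shared calls were 94.1% of those without and 88.9% of those with RANKL. The differences had the same sign for 37 of 42 members. The matching shares of shared calls and of equal signs over all tested genes were not counted. These counts therefore do not set the members apart from other genes. Across the 42 members Pearson's r between the comparisons was 0.938 and Spearman's rho 0.877, against an r of 0.775 across all tested genes. These are correlations across genes, which are not replicates. Taken as 4 libraries against 4, all TMBIM6sh values lay below all NCsh values for 19 members (45.2%, against 16.7% of all tested genes) and above them for Ssr1, Txndc5 and Atf6b (7.14%, against 10.6%). The groups overlapped for the other 20.

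**Figure D1:**
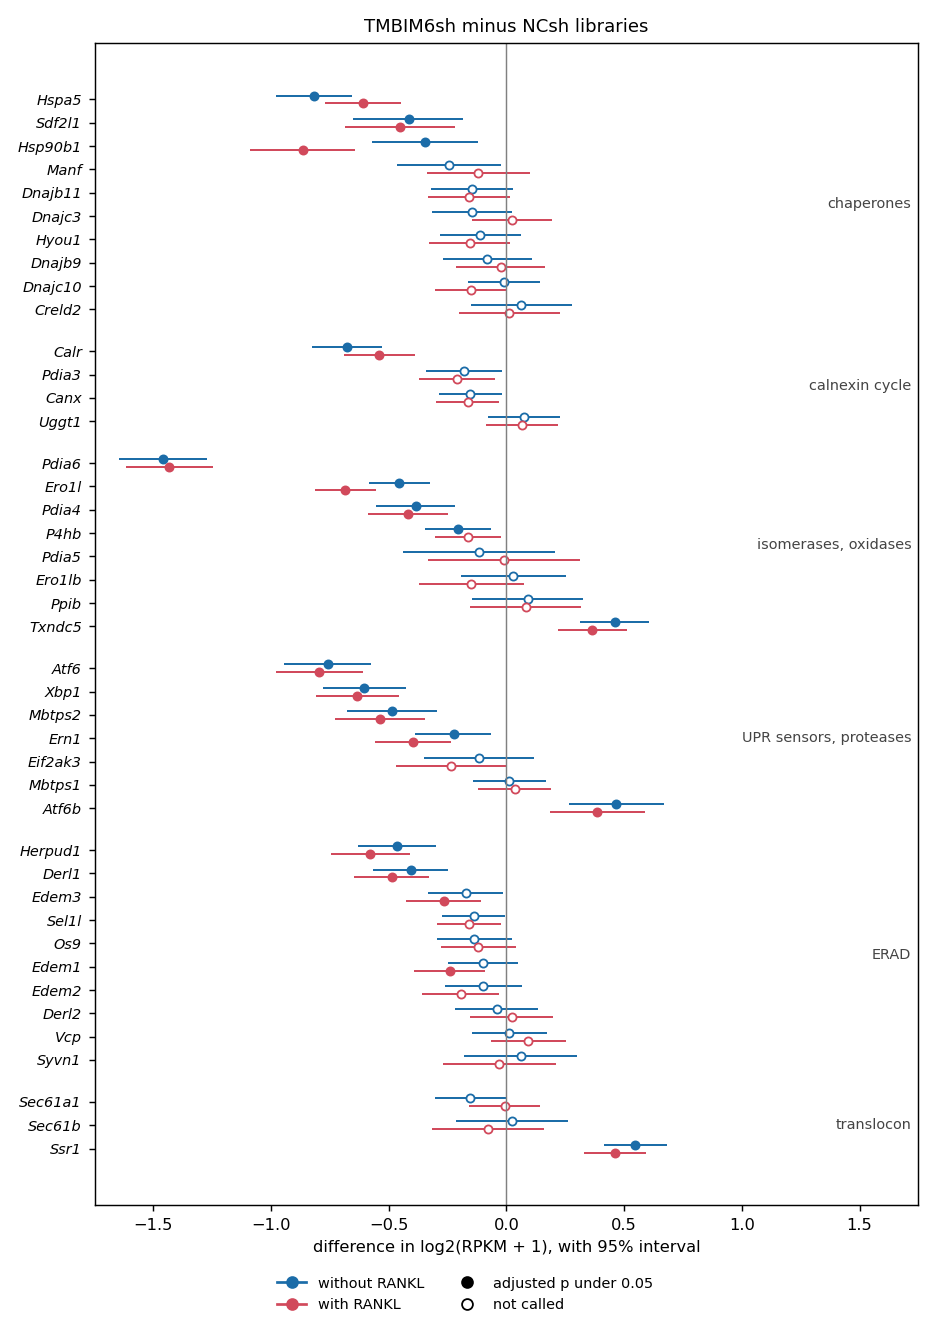
Difference between TMBIM6sh and NCsh libraries in log2(RPKM + 1) for the 42 members, grouped by role, without RANKL (blue) and with RANKL (red), 2 libraries per group. Bars are 95% intervals from the fit and filled points have an adjusted p under 0.05; Pdia6 stands at -1.46 and -1.43, and the points to the right of 0 that are filled are Txndc5, Atf6b and Ssr1.

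The disulfide isomerases and oxidases held the largest difference. Pdia6 (chr12:17266595-17284770), a disulfide isomerase that also acts on IRE1, was at 46.8 and 49.4 RPKM in NCsh without RANKL and at 50.6 and 48.4 with it. In TMBIM6sh it was at 18.2 and 15.6 RPKM without and at 17.0 and 18.4 with RANKL. The highest TMBIM6sh library was thus far under the lowest NCsh library in both states. The TMBIM6sh mean was 35.1% of the NCsh mean without RANKL and 35.8% with it. The difference was -1.46 ± 0.08 (SE) on the log2 scale without RANKL (limma, adjusted p = 9.41e-06) and -1.43 ± 0.08 with it (adjusted p = 7.46e-06). Ero1l (chr14:45283087-45318572), the oxidase that recharges protein disulfide isomerase, had 129 and 127 RPKM in NCsh without RANKL and 143 and 148 with it. It had 92.4 and 94.3 in TMBIM6sh without RANKL and 91.5 and 88.5 with it. All 4 TMBIM6sh values lay together near 90 RPKM, below every NCsh value. The differences were -0.46 without RANKL (limma, adjusted p = 4.22e-04) and -0.68 with it (adjusted p = 3.90e-05).

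Pdia4, another isomerase, differed by -0.39 (limma, adjusted p = 0.00476) and -0.42 on the log2 scale (adjusted p = 0.00265), at 15.8 to 16.7 RPKM in NCsh and 11.2 to 12.8 in TMBIM6sh. P4hb, protein disulfide isomerase itself, was at 109 to 114 RPKM in NCsh and 95.9 to 104 in TMBIM6sh. It passed the test only without RANKL, at -0.21 (limma, adjusted p = 0.0346), and the value with RANKL was -0.16 (adjusted p = 0.0734). Txndc5, an isomerase with thioredoxin domains, went the other way. Its levels were 23.9 and 24.2 RPKM in NCsh without RANKL, 25.1 and 26.3 in NCsh with RANKL, 32.9 and 34.0 in TMBIM6sh without RANKL, and 32.0 and 34.8 in TMBIM6sh with RANKL. The TMBIM6sh means were 33.5 without and 33.4 with RANKL, and no TMBIM6sh library overlapped with NCsh. The differences were 0.46 (limma, adjusted p = 8.14e-04) and 0.37 (adjusted p = 0.00251), and 15.9% of its exon bases lie under other genes, of which Bmp6 stood at most at 0.047 RPKM. The other members of this role passed in neither comparison: the isomerase Pdia5 (0.979 to 1.44 RPKM), the oxidase Ero1lb (6.79 to 9.25) and the prolyl isomerase Ppib (86.4 to 108). Of Ppib's exon bases 57.6% lie under Snx22 on the opposite strand, which had 20.1 to 25.8 RPKM, and tags of both strands were counted.

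Among the luminal chaperones 3 of 10 were lower in each comparison and 0 higher. Over all tested genes 13.8% were lower without and 19.7% with RANKL, and 10.4% and 8.93% were higher. Hspa5 (chr2:34772090-34776529) encodes BiP, the main chaperone of the ER and the one that holds the sensors inactive. Its levels were 128 and 135 RPKM in NCsh without RANKL and 128 and 132 with it. In TMBIM6sh they were 74.6 and 73.7 without RANKL and 79.6 and 90.4 with it. No TMBIM6sh library came near an NCsh library. The differences were -0.82 ± 0.07 (SE, limma, adjusted p = 6.28e-05) and -0.61 ± 0.07 (adjusted p = 2.78e-04). Hsp90b1 (chr10:86690841-86705444), the ER member of the HSP90 family known as GRP94, had 73.9 and 78.5 RPKM in NCsh without RANKL and 97.6 and 95.3 with it. In TMBIM6sh it had 58.5 and 60.9 without RANKL and 46.5 and 59.3 with it. NCsh libraries with RANKL stood highest, and the duplicates of TMBIM6sh with RANKL lay further apart than those of the other groups. The differences were -0.35 (limma, adjusted p = 0.0293) and -0.87 (adjusted p = 2.44e-04). Of its exon bases 21.6% are shared, among others with 1810014B01Rik at 0.625 to 1.73 RPKM on the opposite strand.

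Sdf2l1, a partner of the ER co-chaperones that is among the usual targets of the response, was at 19.3 to 25.1 RPKM in NCsh and 15.2 to 16.4 in TMBIM6sh. Its differences were -0.42 (limma, adjusted p = 0.0163) and -0.45 (adjusted p = 0.00932). The value without RANKL was -0.24 (adjusted p = 0.0504) without replicate 2 of NCsh, the library at 25.1 RPKM, and -0.60 without replicate 1. The 7 chaperones that passed in neither comparison include 4 co-chaperones with a J domain. These were Dnajb9 (12.6 to 14.8 RPKM), Dnajb11 (40.2 to 48.9), Dnajc3 (12.1 to 15.3) and Dnajc10 (17.9 to 21.7). The rest were Hyou1, a nucleotide exchange factor for BiP (19.7 to 26.2), and the stress-induced Manf (14.0 to 19.2) and Creld2 (10.6 to 12.5). Their intervals show what could have been missed. Without RANKL, that of Dnajb9 ran from -0.27 to 0.11 and that of Creld2 from -0.15 to 0.27. Those of Dnajb11 and Dnajc3 reached down to -0.32 and -0.31. The interval of Manf ran from -0.46 to -0.03 and takes in a fall as large as that called for Sdf2l1.

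In the calnexin cycle 1 of 4 members passed, as lower, against 13.8% and 19.7% of all tested genes lower without and with RANKL. Calr (chr8:84842088-84846931), the soluble lectin chaperone calreticulin and the member with the highest mean level at 153 RPKM, had 189 and 197 RPKM in NCsh without RANKL and 171 and 183 with it. It had 119 and 121 in TMBIM6sh without RANKL and 116 and 126 with it. The 4 TMBIM6sh libraries lay within a narrow range below all NCsh libraries. The differences were -0.68 (limma, adjusted p = 1.15e-04) and -0.54 (adjusted p = 3.51e-04). Canx, the membrane-bound partner calnexin, was at 131 to 150 RPKM in NCsh and 119 to 133 in TMBIM6sh, with differences of -0.15 (limma, adjusted p = 0.0868) and -0.16 (adjusted p = 0.0611). Pdia3, the isomerase that works with both lectins, was at 76.8 to 87.7 and 69.8 to 74.1 RPKM, with -0.18 (adjusted p = 0.095) and -0.21 (adjusted p = 0.0508). All 4 TMBIM6sh values of Pdia3 lay below the NCsh values although the test was not passed. Uggt1, which checks the fold of glycoproteins, ranged from 13.9 to 16.7 RPKM, with differences of 0.07 and 0.07.

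Of the 7 sensors, their factor and their proteases, 4 were lower and 1 higher in each comparison. The shares over all tested genes were 13.8% and 19.7% lower, and 10.4% and 8.93% higher, without and with RANKL. Atf6 (chr1:170704457-170867771), the sensor that becomes a transcription factor, had 16.2 and 15.3 RPKM in NCsh without RANKL and 16.2 and 14.8 with it. It had 9.48 and 8.37 in TMBIM6sh without RANKL and 8.37 and 8.60 with it. The TMBIM6sh means were 56.5% and 54.8% of the NCsh means, and the libraries did not overlap. The differences were -0.76 ± 0.08 (SE, limma, adjusted p = 1.84e-04) and -0.80 ± 0.08 (adjusted p = 1.27e-04). Its relative Atf6b (chr17:34647146-34655074) was at 17.1 and 17.6 RPKM in NCsh without RANKL, 19.1 and 17.1 in NCsh with RANKL, 24.4 and 24.3 in TMBIM6sh without RANKL, and 21.8 and 26.2 in TMBIM6sh with RANKL. This was the opposite direction to Atf6, at 0.47 (limma, adjusted p = 0.00455) and 0.39 (adjusted p = 0.0101). Mbtps2, the site-2 protease, was at 14.3 to 15.5 RPKM in NCsh and 9.17 to 10.8 in TMBIM6sh, with differences of -0.49 (adjusted p = 0.00268) and -0.54 (adjusted p = 0.00133). Of its exon bases 36.1% are shared with Yy2 on the same strand, listed at 0.898 to 1.51 RPKM. Mbtps1, the site-1 protease, had 14.2 to 17.8 RPKM in NCsh and 14.5 to 18.1 in TMBIM6sh, and its differences were 0.01 and 0.04.

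Xbp1 (chr11:5520641-5525993), the factor made from the mRNA that IRE1 splices, had 29.9 and 33.2 RPKM in NCsh without RANKL and 27.0 and 27.2 with it. It had 20.6 and 20.2 in TMBIM6sh without RANKL and 16.1 and 18.2 with it. The 4 groups fell in this order with no overlap between any of them. The differences between hairpins were -0.60 (limma, adjusted p = 5.02e-04) and -0.63 (adjusted p = 3.48e-04), and gene values do not tell spliced from unspliced Xbp1. Ern1, which encodes IRE1 alpha, had 18.4 and 16.4 RPKM in NCsh without RANKL and 21.1 and 20.6 with it. It had 14.5 and 14.9 in TMBIM6sh without RANKL and 15.7 and 15.5 with it. The TMBIM6sh libraries were lower in both states, at -0.23 without RANKL (limma, adjusted p = 0.0431) and -0.40 with it (adjusted p = 0.00265). Eif2ak3, which encodes the sensor PERK, was at 5.15 to 6.47 RPKM in NCsh and 4.60 to 5.97 in TMBIM6sh, with -0.12 (adjusted p = 0.457) and -0.23 (adjusted p = 0.117).

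**Figure D2:**
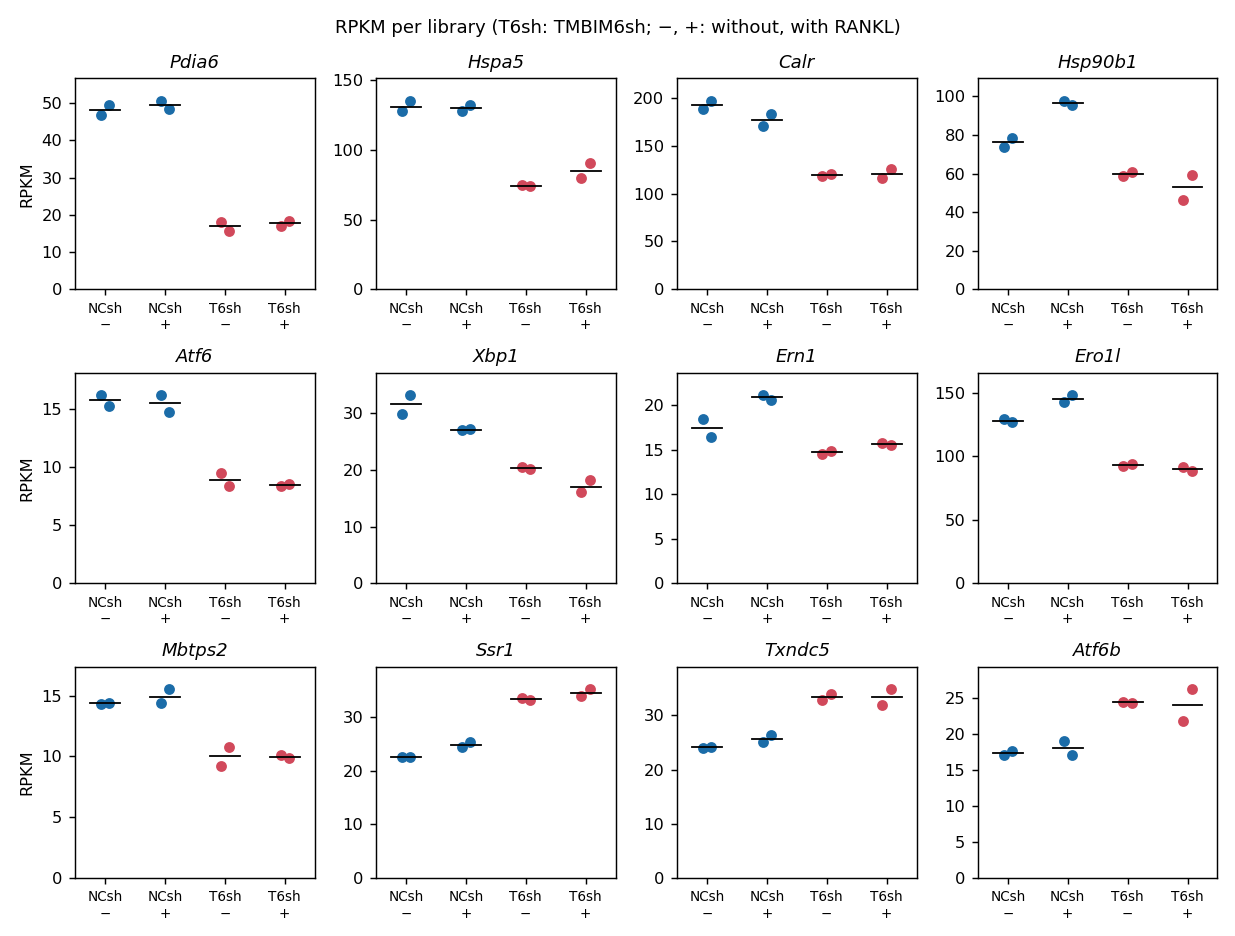
RPKM of 12 members in each library, with NCsh in blue and TMBIM6sh (T6sh) in red, without (−) and with (+) RANKL, and the mean of the 2 libraries as a line; every vertical axis starts at 0. In 9 panels all 4 red points lie below all 4 blue points, and in the panels of Ssr1, Txndc5 and Atf6b they lie above them.

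In ERAD 2 of 10 members were lower without RANKL and 4 with it, and 0 were higher. Of all tested genes 13.8% and 19.7% were lower, and 10.4% and 8.93% higher. Herpud1, a membrane protein that gathers the degradation complex, was at 15.5 to 17.3 RPKM in NCsh and 10.9 to 11.7 in TMBIM6sh. It differed by -0.47 (limma, adjusted p = 0.00155) and -0.58 (adjusted p = 4.20e-04). Derl1, a derlin that helps substrates leave the membrane, was at 58.7 to 65.8 RPKM in NCsh and 41.2 to 47.4 in TMBIM6sh, with -0.41 (adjusted p = 0.00266) and -0.49 (adjusted p = 8.44e-04). For both genes the lowest NCsh library was above the highest TMBIM6sh library. Edem1 and Edem3, lectins that mark misfolded glycoproteins for degradation, passed with RANKL at -0.24 (limma, adjusted p = 0.0209) and -0.27 (adjusted p = 0.0181). Without RANKL they stood at -0.10 and -0.17. Their ranges over the 8 libraries were 34.0 to 43.4 and 11.7 to 15.3 RPKM. The scaffold Sel1l (34.7 to 41.8 RPKM), the lectin Os9 (39.4 to 48.5) and Edem2 (24.6 to 31.8) had differences from -0.20 to -0.10 in the 2 comparisons, and none of the 3 passed. The ubiquitin ligase Syvn1 (12.6 to 16.0 RPKM), Derl2 (13.0 to 14.8) and the segregase Vcp (141 to 164) also passed in neither. For Vcp, which extracts ubiquitinated proteins from the ER membrane, the 95% intervals were -0.14 to 0.17 and -0.06 to 0.25.

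At the translocon Ssr1 (chr13:37975991-37994208), a subunit of the translocon-associated protein complex, was higher. It had 22.5 and 22.5 RPKM in NCsh without RANKL, 24.5 and 25.3 in NCsh with RANKL, 33.6 and 33.2 in TMBIM6sh without RANKL, and 34.0 and 35.2 in TMBIM6sh with RANKL. The TMBIM6sh and NCsh libraries did not overlap. The differences were 0.55 (limma, adjusted p = 1.72e-04) and 0.46 (adjusted p = 4.07e-04), the largest rises among the members in each comparison. The channel subunits Sec61a1 (44.1 to 51.8 RPKM) and Sec61b (43.3 to 53.7) passed in neither.

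Most of these calls were kept when the settings changed. Leaving out a library leaves its group with a single one, judged by the spread of the other groups. Such a fit cannot show that a call does not rest on a single library. Over 15 other settings, 13 of the 17 calls without RANKL and 14 of the 18 with RANKL were kept in every one. Without RANKL the calls of Sdf2l1, Hsp90b1, P4hb and Ern1 were lost in 5, 5, 7 and 11 settings. Leaving out replicate 1 of TMBIM6sh without RANKL gave them adjusted p-values of 0.0891, 0.153, 0.148 and 0.199 (limma), leaving out its replicate 2 gave 0.0714, 0.0952, 0.178 and 0.136, and the highest over all settings were 0.0891, 0.153, 0.178 and 0.199. Sdf2l1, Hsp90b1 and P4hb were also lost without replicate 2 of NCsh without RANKL, at 0.0504, 0.106 and 0.093, and Ern1 without its replicate 1, at 0.178 with a difference of -0.15 in place of -0.23. P4hb and Ern1 were lost as well without either NCsh library with RANKL (0.0601 to 0.066), and Ern1 without either TMBIM6sh library with RANKL (0.0591 and 0.0593), since all groups share the estimate of the spread. With RANKL, Sdf2l1 was lost without replicate 1 of NCsh (0.064) or of TMBIM6sh (0.0561), Atf6b without replicate 2 of NCsh (0.0776) or of TMBIM6sh (0.0678), and Edem1 and Edem3 without any 1 of the 4 libraries compared (0.0674 to 0.115). The calls of Edem1 (0.0985) and Edem3 (0.0739) also ended with median-ratio scaling.

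The promoter elements were set beside the direction of the members as counts, with no test. An ERSE was in the windows of 4 of the 11 members lower in both comparisons that had a window, namely Pdia6, Hspa5, Calr and Hsp90b1. It was in 0 of the 3 that were higher in both and in 5 of 20 that were called in neither. ERSE-II was in 1 of the 11 (Herpud1), 0 of the 3 and 1 of the 20 (Dnajb11), and the XBP1 site in 0 of the 11, 1 of the 3 (Txndc5) and 1 of the 20 (Vcp). Among members with a window, the 3 with the largest falls without RANKL have the element printed above, and so do Canx and Dnajc3, which passed in neither comparison at -0.15 and -0.15 without RANKL. Creld2, Ero1lb and Syvn1, at 0.06, 0.03 and 0.06, have it too. With RANKL the order was another. Among members with a window, Pdia6 and Hsp90b1, which hold an ERSE, fell most. Next came Ero1l (-0.685) and Xbp1 (-0.634), with no ERSE in their windows, ahead of Hspa5 (-0.609) and Calr (-0.540). Atf6, Derl1, Manf, Hyou1 and Sec61a1 have no window in the table. A match in these letters is a description of the sequence and not a measured binding site.

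**Figure D3:**
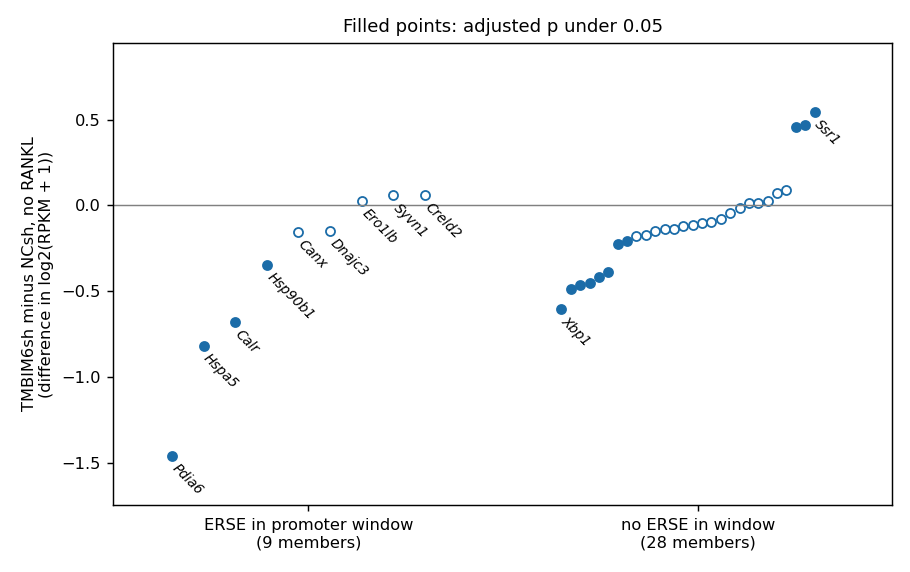
Difference between TMBIM6sh and NCsh without RANKL in log2(RPKM + 1) for the 37 members with a promoter window, split by whether the window holds an ERSE; filled points have an adjusted p under 0.05. The 9 members with the element run from Pdia6 at -1.46 to Creld2 and Syvn1 at 0.06, and the 28 without it from Xbp1 at -0.60 to Ssr1 at 0.55.

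RANKL changed few members. In NCsh libraries 4 of 42 were higher with RANKL and 0 lower, against 11.0% and 3.98% of all tested genes. In TMBIM6sh libraries 1 was higher and 0 lower, against 8.53% and 6.89%. At an unadjusted p under 0.05 the counts were 12 and 6 of 42 members, against 3331 and 3156 of 11040 genes. The median differences were 0.04 and 0.02, beside 0.06 and 0.02 over all tested genes. Their sign depends on the scaling: with median-ratio scaling they were -0.04 and -0.002 for the members and -0.007 and -0.005 for all tested genes. These shares are at or below the background, so the counts show nothing about the members as a group.

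The 4 members called in NCsh were Hsp90b1, Ern1, Dnajc10 and Mbtps1. Hsp90b1 rose from a mean of 76.2 to 96.5 RPKM (0.34, limma, adjusted p = 0.0461) and Ern1 from 17.4 to 20.9 (0.25, adjusted p = 0.0386). Dnajc10, a co-chaperone that reduces disulfides, rose from 18.2 to 21.7 RPKM (0.24, adjusted p = 0.0363) and Mbtps1 from 14.8 to 17.6 (0.24, adjusted p = 0.0428). In each of the 4 genes both libraries with RANKL lay above both without it. The same held for members that were not called, among them Canx, Hyou1 and Ero1l, and the share over all tested genes was not counted. Ero1l was next at 0.18 (adjusted p = 0.0611). In TMBIM6sh Mbtps1 was the member called, at 14.5 and 15.4 RPKM without RANKL and 18.0 and 18.1 with it (0.26, adjusted p = 0.0282). Dnajc3 (0.21, adjusted p = 0.0884), Hspa5 (0.19, adjusted p = 0.101), Edem1 (-0.16, adjusted p = 0.137) and Xbp1 (-0.24, adjusted p = 0.0617) followed.

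None of these 5 RANKL calls was kept under all 15 other settings. In NCsh each of the 4 was lost in 9 to 12 settings. All 4 were lost without replicate 1 or 2 of NCsh with RANKL (adjusted p 0.115 to 0.198), without replicate 2 of NCsh without RANKL (0.0571 to 0.149) and without either TMBIM6sh library without RANKL (0.0688 to 0.0755). Dnajc10 (0.0971) and Hsp90b1 (0.132) were also lost without replicate 1 of NCsh without RANKL, and Ern1 and Mbtps1 without either TMBIM6sh library with RANKL (0.0554 to 0.0597). With median-ratio scaling Xbp1 (-0.29, adjusted p = 0.0184) and Calr (-0.21, adjusted p = 0.0352) were lower and 0 members higher. That scaling turned the split over all genes from 1214 higher and 439 lower to 787 and 850. In TMBIM6sh the Mbtps1 call was lost when any of the 4 libraries compared was left out (0.0815 to 0.198), and median-ratio scaling added Xbp1 as lower (-0.27, adjusted p = 0.024).

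**Figure D4:**
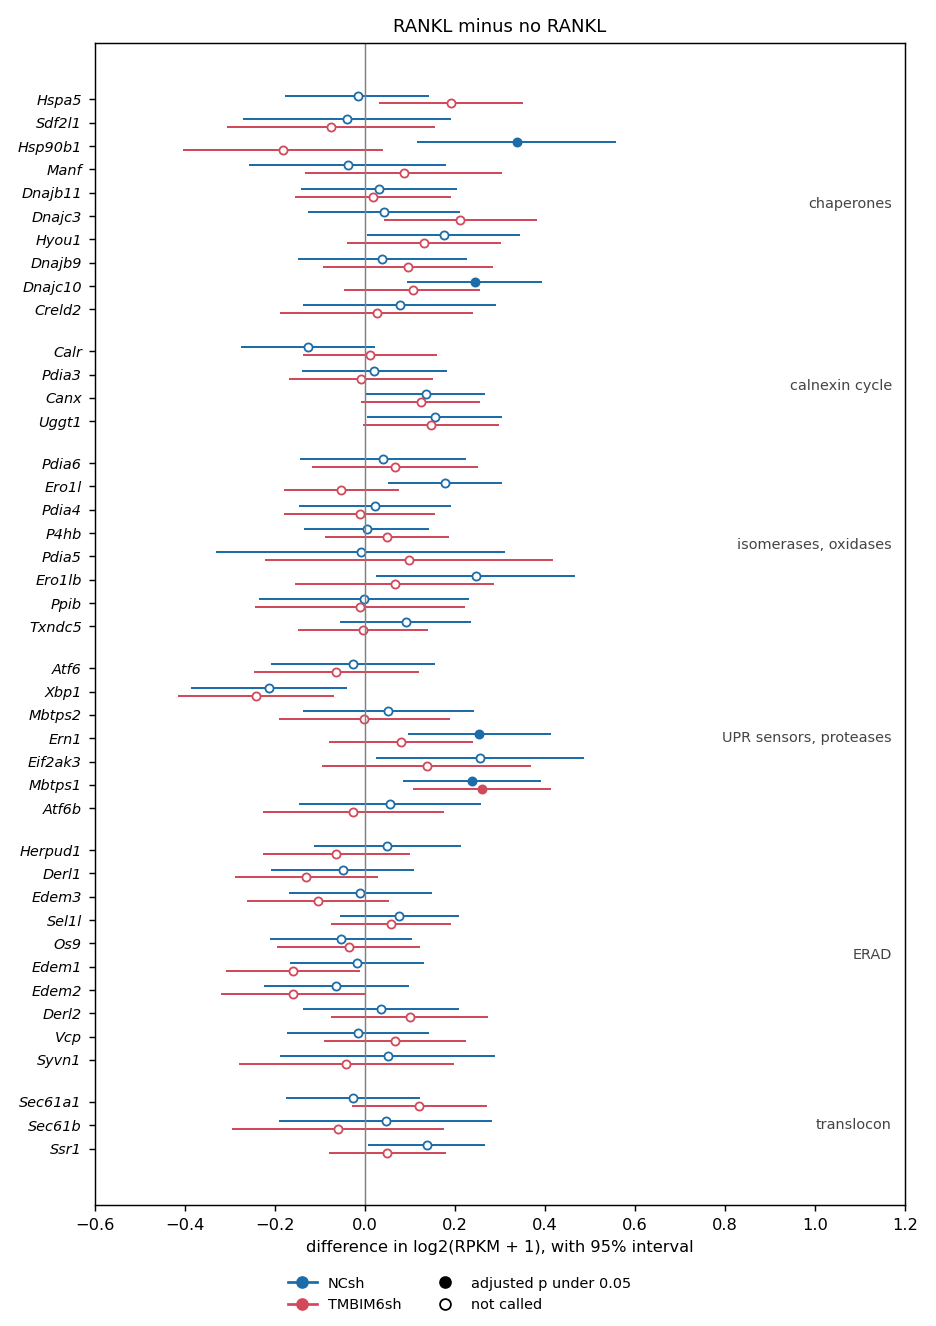
Difference between libraries with and without RANKL in log2(RPKM + 1) for the 42 members, in NCsh (blue) and TMBIM6sh (red), 2 libraries per group. Bars are 95% intervals and filled points have an adjusted p under 0.05; all points lie between -0.24 and 0.34.

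The difference between the RANKL responses was tested directly as an interaction. It called 0 of 42 members in either direction (limma), 2 had an unadjusted p under 0.05, against 857 of 11040 genes, and over all genes it called 0% higher and 0.00906% lower (1 gene, which is not a member). Hsp90b1 had the smallest p. It rose with RANKL in NCsh and stood at 59.7 RPKM without and 52.9 with RANKL in TMBIM6sh. The interaction was -0.52 (95% interval -0.83 to -0.21, unadjusted p = 0.00404, adjusted p = 0.57, and 0.203 to 0.963 over the other settings). Ero1l followed at -0.23 (95% interval -0.41 to -0.05, adjusted p = 0.609), then Hspa5 at 0.21 (adjusted p = 0.639), Ern1 at -0.17 (0.688) and Dnajc3 at 0.17 (0.711). The RANKL comparison in NCsh, the hairpin comparison with RANKL and the interaction use the same NCsh libraries with RANKL.

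Other genes of the same pathways were taken from lists of 90 genes, of which 88 were tested. Without RANKL 16 of them were lower and 11 higher in TMBIM6sh (background 13.8% and 10.4%), and with RANKL 20 were lower and 10 higher (19.7% and 8.93%). These counts are little above the background and say little about the lists as a group. The same background stands beside each list below. In the list of translocation, signal peptidase and oligosaccharyltransferase genes, 4 of 21 were lower and 1 higher without RANKL, and 7 lower and 0 higher with it. Spcs3, a signal peptidase subunit, led this list, at means of 32.8 and 20.7 RPKM without RANKL and 39.0 and 20.1 with it in NCsh and TMBIM6sh (-0.64 and -0.92, limma, adjusted p = 2.59e-04 with no RANKL). Srpr, a receptor subunit for the signal recognition particle, was at -0.25 and -0.30, and Ssr3, which sits in 1 complex with Ssr1, at -0.19 and -0.29, opposite to Ssr1. Tram1, a translocation factor, was higher without RANKL at 0.25.

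Of 21 other folding enzymes and glycan-trimming genes 4 were lower and 2 higher in each comparison. These counts are near the background of 13.8% and 10.4% without RANKL and 19.7% and 8.93% with it. Tmx3, a membrane-bound thioredoxin-like isomerase, went from 15.6 to 8.2 RPKM without RANKL and from 17.5 to 7.26 with it (-0.85 and -1.16). Fkbp2, a prolyl isomerase, was lower without RANKL at -0.47, while Tmx4, a relative of Tmx3, rose at 0.57 and 0.47 and Cnpy3, a chaperone partner for Toll-like receptors, at 0.41 and 0.45. Among 20 other ERAD genes 4 were higher and 3 lower without RANKL, and 5 and 3 with it. The leading pair were Erlin1, which forms a membrane complex with Erlin2, at 0.83 and 0.92, and Nploc4, a cofactor of Vcp, at 0.47 and 0.51. Erlin2 itself was lower at -0.27 and -0.45, and Ube2g2, a ubiquitin-conjugating enzyme, was higher with RANKL at 0.32.

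In the PERK branch, 3 of 8 genes were lower in both comparisons, and 2 were higher without and 1 with RANKL. The background was 13.8% and 19.7% lower, and 10.4% and 8.93% higher, without and with RANKL. Ddit3, the stress-induced factor CHOP, stood at 46.7 RPKM in NCsh and 26.6 in TMBIM6sh without RANKL, and at 43.9 and 25.5 with it (-0.78 and -0.76). Trib3, a CHOP target, was at -0.52 and -0.54, and Atf4, the factor translated when PERK is active, at -0.26 and -0.37. Ppp1r15b, a subunit of the phosphatase that reverses PERK's mark, was higher at 0.41 and 0.32. Of 18 COPII transport genes 2 were higher in each comparison, Lman1 (0.28 and 0.32), a cargo receptor, and Sar1a (0.23 and 0.25), the coat's GTPase. Another 2 were lower without and 3 with RANKL, among them the coat subunit Sec24d at -0.30 and -0.32 and, without RANKL, Kdelr1, the receptor that returns ER proteins from the Golgi, at -0.31. The COPII counts are near the background. The calls of Spcs3, Tmx3, Erlin1, Nploc4, Ddit3 and Trib3 were kept under all 15 other settings in both comparisons, as were those of Fkbp2 without RANKL and Ube2g2 with it. Without RANKL calls were lost for Srpr (3 settings), Ssr3 (8), Tram1 (2), Tmx4 (1), Cnpy3 (4), Erlin2 (2), Atf4 (4), Sec24d (3), Lman1 (5), Sar1a (5) and Kdelr1 (5). With RANKL they were lost for Ssr3 (1), Tmx4 (3), Ppp1r15b (2), Sec24d (2), Lman1 (2) and Sar1a (3).

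**Figure D5:**
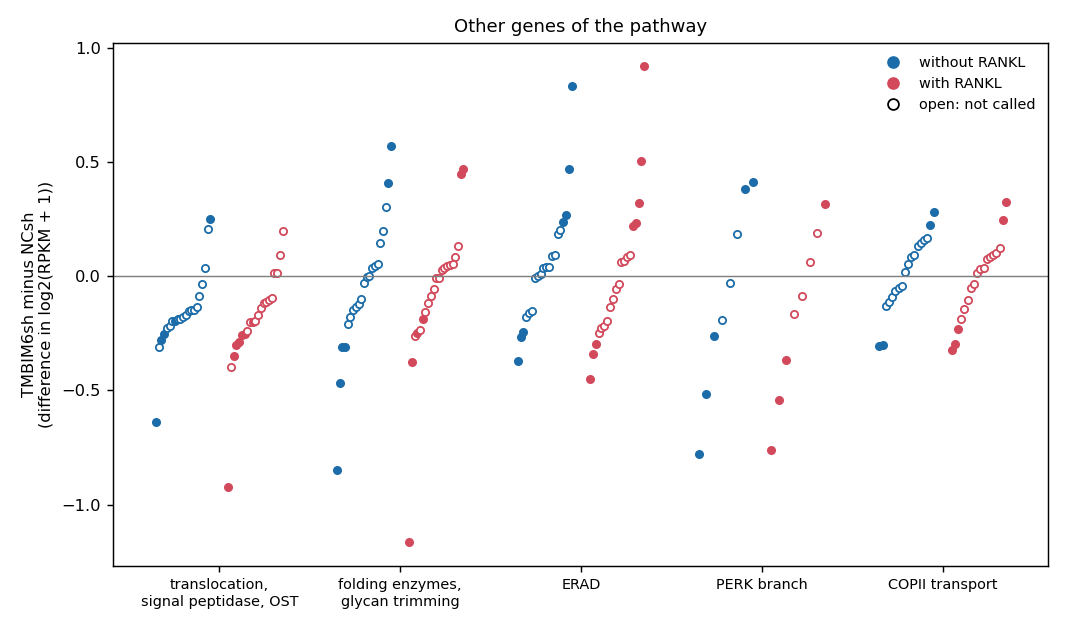
Difference between TMBIM6sh and NCsh libraries in log2(RPKM + 1) for the 88 other tested genes of the 5 lists, without (blue) and with RANKL (red), sorted within each list; filled points have an adjusted p under 0.05. Filled points lie on both sides of 0 in each list without RANKL, with Tmx3 lowest at -1.16 and Erlin1 highest at 0.92, both with RANKL.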

How the data were processed

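RNA from 8 libraries of mouse bone marrow-derived macrophages was measured as 1 table. Its RPKM values were made by the authors with HOMER's analyzeRepeats on mm10 RefSeq models, per the file headers: tags of both strands over exons were counted, and isoforms were condensed to 1 entry per gene. The column heads say FPKM, the command RPKM. The submitters' processing notes also name HISAT2 and DESeq2, with no versions given. The depth of a library was taken as the total that turned its low values into whole tags. With it, 100% of 4678 to 5261 values per library lay within 0.1 tags of a whole number, which follows in part from that choice. Members had from 50 tags (Pdia5) to 18603 (Ero1l) per library, and the precision also rests on 2 libraries a group.

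Genes reaching 1 RPKM in 2 or more libraries were kept, and their log2(RPKM + 1) was fitted with limma 3.58.1 in R 4.3.3. The fit had 1 mean per group and a trend (4 residual and 5.54 prior degrees of freedom), in 5 comparisons. It was tried on simulated data beforehand for the hairpin comparison without RANKL, and not for the others. P-values were adjusted by Benjamini-Hochberg over 11040 genes, with a threshold of 0.05. Differences are on the log2(RPKM + 1) scale, which understates changes of low genes. The members and lists were chosen with earlier results of these data known, so no list was tested as a set. Every member is named. Values are given for called members, up to 12 a direction, or for the 5 with the smallest p where fewer than 5 were called, and for up to 4 called genes per other list. Exon overlaps came from GENCODE M21. Alternatives were a pseudocount of 0.1, no filter, a filter at 5 RPKM, median-ratio scaling, no trend, a replicate block, the compared libraries alone and each library left out. Libraries with the same replicate number showed no shared deviation (correlations of deviations -0.0651 to 0.0625 over 6 group pairs). This cannot tell whether they came from the same mice or preparation.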

Additional observations from a re-analysis of the deposited data

How the results depend on the processing

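No gene called in the report, among members and other pathway genes, changed its direction under the settings run for it. The median member difference for RANKL did under median-ratio scaling, from 0.04 to -0.04 in NCsh and from 0.02 to -0.002 in TMBIM6sh. In NCsh, the 4 members called for RANKL became 0 with no filter, 2 with median-ratio scaling (both lower, where all 4 had been higher), 0 with no trend and 1 with the compared libraries alone, and 0 to 2 with a library left out. In TMBIM6sh, the 1 member became 2 with a filter at 5 RPKM, 2 with median-ratio scaling, and 0 to 2 with a library left out. Member counts between hairpins stayed within 1.5 times the reported ones: 13 to 18 without RANKL and 15 to 22 with RANKL over the libraries left out. The interaction called 0 members in every setting run. It was not run on compared libraries alone, since it uses all 8.

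With the replicate block the 5 counts of members called were 3 (RANKL in NCsh), 1 (RANKL in TMBIM6sh), 17 and 19 (hairpins without and with RANKL) and 0 (interaction). Samples share only a number here, so whether the block describes a pairing is not known.

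Over all genes, counts moved by more than 1.5 times as follows. RANKL in NCsh went from 1653 to 1020 with the compared libraries alone, and to 694 and 887 without replicates 1 and 2 of NCsh with RANKL. RANKL in TMBIM6sh went from 1703 to 880 and 826 without replicates 1 and 2 of TMBIM6sh without RANKL, and to 996 and 1066 without those with RANKL. Hairpins without RANKL went from 2673 to 1401 and 1396 without replicates 1 and 2 of TMBIM6sh. Hairpins with RANKL went from 3157 to 1870 and 2077 without replicates 1 and 2 of NCsh, and to 2071 without replicate 1 of TMBIM6sh. The cause was not tested beyond the smaller number of libraries. Depth limits Pdia5 most, at 50 tags in its lowest library.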
